A study of Mus musculus with 6 samples.

Results

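The genes of glutathione, thioredoxin and peroxide defence were taken by name. They are the superoxide dismutases (Sod), glutathione peroxidases (Gpx), peroxiredoxins (Prdx), thioredoxins and thioredoxin reductases (Txn, Txnrd) and the alpha, mu, omega, pi, theta and membrane-bound glutathione S-transferases (Gsta, Gstm, Gsto, Gstp, Gstt, Mgst), with Cat, Gclc, Gclm, Gss, Gsr, Glrx, Nqo1, Srxn1, Nfe2l2 and Keap1 added and names containing -ps left out. This gave 56 of the 26754 genes in the files, of which 54 had a read in at least 1 library. The RNA came from B16 tumours, a mouse melanoma line placed under the skin of female C57BL/6J mice aged 6 to 8 weeks, from cells held on a column by magnetic beads against CD8a. Cells were taken on day 14 or on day 7 after implantation, with 3 libraries per day, and the labels name the genotype C57 and no further treatment for either day. The labels give no check of purity after the column and do not say that libraries came from separate mice, so p-values here describe the spread between these libraries.

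Superoxide dismutases turn superoxide into hydrogen peroxide, which catalase, glutathione peroxidases and peroxiredoxins then reduce to water. Glutathione peroxidases draw electrons from glutathione and most peroxiredoxins from thioredoxin, and both carriers are reduced again with NADPH by glutathione reductase and thioredoxin reductase. Glutathione S-transferases couple glutathione to reactive compounds, and the transcription factor NRF2, held in check by KEAP1, drives many genes of the system. In tumours, activated T cells, macrophages and melanoma cells all use these enzymes.

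Values are RPKM, reads per kilobase of gene and per 1000000 reads in genes. Reads in genes numbered 11385106 to 13316522 in the day 14 libraries and 6523019 to 9313078 in the day 7 libraries. Between replicates 1 and 2 of day 7 the difference was close to counting error (median chi-square ratio per fragment 1.11, where 1 is counting error alone), while replicate 3 stood at 40.9 and 44.4 from them and pairs of day 14 libraries at 4.05 to 4.43. The pair was averaged into 1 sample (n = 3 on day 14, n = 2 on day 7). The 12 T cell markers summed to 150 to 160 RPKM on day 14 and to 571 to 636 RPKM on day 7. All 12 were detected on both days, and RNA of other cells was present beside that of the labelled CD8+ T cells. The 9 melanocyte and B16 markers summed to 10460 to 11480 RPKM on day 14 and 5720 to 5946 RPKM on day 7, and the 12 macrophage markers to 1372 to 1408 RPKM on day 14 and 822 to 953 RPKM on day 7. Neutrophil markers summed to 50.2 to 65.3 RPKM on day 14 and 12.7 to 17.4 RPKM on day 7, where Ly6g, Cxcr2 and Retnlg were at 0, and 7 hepatocyte markers to 5.57 to 10.5 RPKM on day 14 and 133 to 189 RPKM on day 7. NK cell markers summed to 6.09 to 10.1 RPKM on day 14 and 37.2 to 54.7 RPKM on day 7, and B cell markers to 1.39 to 1.76 RPKM on day 14 and 2.69 to 5.66 RPKM on day 7. Dendritic cell markers summed to 10.7 to 12.1 RPKM on day 14 and 6.28 to 18.7 RPKM on day 7, and fibroblast and endothelial markers to 5.05 to 5.63 RPKM on day 14 and 5.61 to 8.55 RPKM on day 7. The ranges of the dendritic cell list and of the fibroblast and endothelial list overlapped between the days and those of the other lists given here did not. The part of these cell types in the results below was not tested, and in such bulk RNA fewer cells of a type and less RNA per cell cannot be told apart.

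The question put to the genes was whether day 14 differed from day 7. The summed share of the genes overlapped between the days: the 56 genes took 0.269%, 0.279% and 0.262% of the reads in the day 14 libraries and 0.291%, 0.292% and 0.257% in the day 7 libraries. Of the 24 genes whose mean reached 20 CPM (reads per 1000000), which were tested together with all other genes that passed, 1 rose on day 14 (Gsta4) and 0 fell at a Benjamini-Hochberg adjusted p under 0.05 by limma. Over all 6691 genes tested, 1.66% were called higher and 3.14% lower, so neither count is far from the background. The median log2 fold change of the 24 was 0.02, and that of all genes tested was 0.16. At an unadjusted p under 0.05 there were 8 of the 24, where 19.4% of all genes tested passed. In 4 of the 24 every day 14 library lay above every day 7 library and in 6 every one lay below, against 31.6% and 17.8% of all genes tested. Without precision weights limma called Gpx4, Gsta2 and Gsta4 higher and Prdx6, Sod1 and Sod2 lower, with 8.98% of all genes called higher and 6.13% lower, and limma-voom on the recovered reads called the same 6 and Gpx1 lower, with 21.7% and 10.8%.

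**Figure D1:**
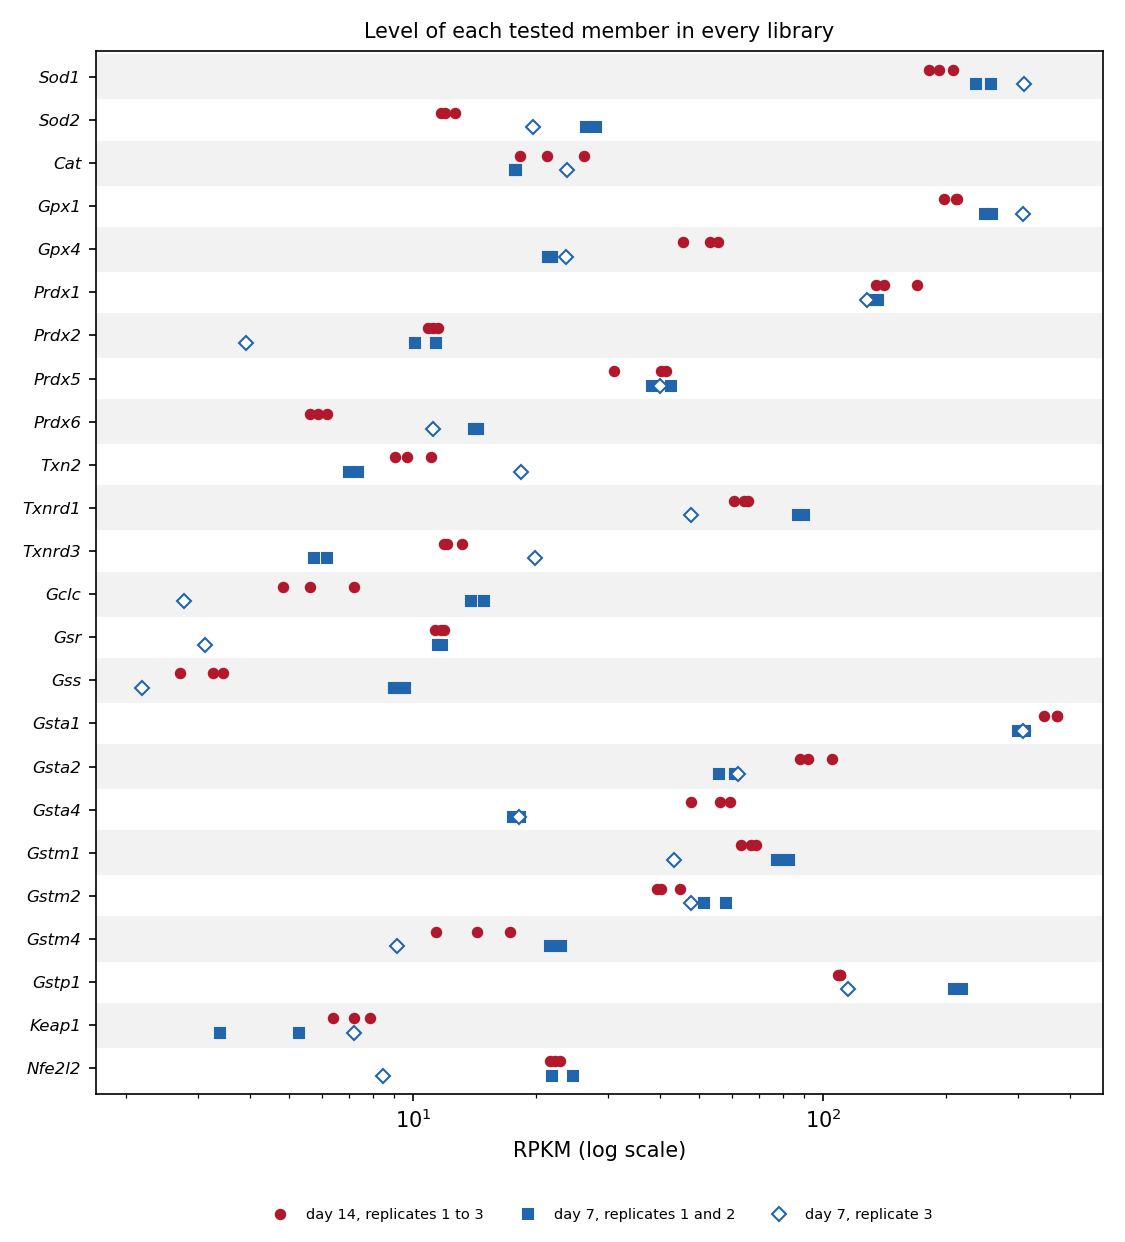
RPKM of the 24 tested genes in each library on a log scale, grouped by role from superoxide dismutases at the top to regulators at the bottom; red circles are the 3 day 14 libraries, filled blue squares day 7 replicates 1 and 2, and open blue diamonds day 7 replicate 3. Day 14 libraries sit close together in most genes, while day 7 replicate 3 often stands apart from the other day 7 libraries, as in Gclc (2.77 RPKM against 14.9 and 13.9 RPKM).

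The 2 tested superoxide dismutases had lower values on day 14, and neither passed the test. Sod1, the copper and zinc enzyme of the cytosol (chromosome 16, 90220742 to 90226322, plus strand of GRCm38), had 208, 192 and 182 RPKM on day 14 and 257, 236 and 309 RPKM on day 7. Sod2, the manganese enzyme of mitochondria (chromosome 17, 13007839 to 13018119, plus strand), had 11.7, 12 and 12.7 RPKM on day 14 and 28, 26.5 and 19.6 RPKM on day 7. In both genes every day 14 library lay below every day 7 library. The log2 fold change was -0.51 (SE 0.15, 95% interval -0.84 to -0.18, limma adjusted p = 0.0895) for Sod1 and -0.88 (SE 0.30, interval -1.54 to -0.22, adjusted p = 0.135) for Sod2. Against the summed T cell markers, which were lower on day 14, both signs turned (1.44 for Sod1 and 0.96 for Sod2). That scaling moved the median of all genes tested from 0.16 to 1.90, so the turn is not read as a trait of the 2 genes. Sod3, the secreted enzyme, was under 1 RPKM in all libraries. Cat, the catalase of peroxisomes, had 21.2, 26.2 and 18.3 RPKM on day 14 and 17.8, 17.9 and 23.8 RPKM on day 7. Its days overlapped, with a log2 fold change of 0.07 (SE 0.39, adjusted p = 0.946).

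Glutathione peroxidases differed in direction from one another, and neither of the 2 tested passed. Gpx1 and Gpx4 are selenoenzymes, as are Gpx2, Gpx3 and the thioredoxin reductases, and read a TGA codon as selenocysteine at the site that reacts with peroxide or carries the final electrons. The annotated codons are shown because they are what these members share in sequence. Each run is 5′ to 3′ on the coding strand from GENCODE M21 (GRCm38), with the selenocysteine codon in capitals.
Gpx1: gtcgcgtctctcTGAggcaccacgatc
Gpx4: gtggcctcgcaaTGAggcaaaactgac
Gpx3: gtagccagctacTGAggtctgacagac
Txnrd1: cagtctggctgcTGAggt
Txnrd2: gtgactggttgcTGAggc
Txnrd3: cagaaaggctgcTGAggc
The codon lies inside the reading frame in the peroxidases (codon 47 of 201 in Gpx1, at chr9:108339451-108339453, and codon 129 of 253 in Gpx4, at chr10:80054737-80054739) and is the last codon but one in the reductases (612 of 613 in Txnrd1, 526 of 527 in Txnrd2 and 614 of 615 in Txnrd3). Codons are counted in the longest coding sequence of each gene that is annotated with a selenocysteine, and other forms of a gene are not given here.

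Gpx4, the enzyme that reduces lipid peroxides within membranes and so protects cells from ferroptosis (chromosome 10, 80047166 to 80056439, plus strand), had 53, 55.4 and 45.5 RPKM on day 14 and 21.4, 21.9 and 23.7 RPKM on day 7. All day 14 libraries were above all day 7 libraries, and the values within each day were close. The log2 fold change was 1.14 (SE 0.35, interval 0.38 to 1.90, 2.20-fold), with an adjusted p of 0.0963 by limma. It was called without weights (adjusted p = 0.00922) and by limma-voom (adjusted p = 0.00523). Gpx1, the abundant peroxidase of cytosol and mitochondria (chromosome 9, 108338903 to 108340343, plus strand), had 211, 213 and 198 RPKM on day 14 and 248, 258 and 307 RPKM on day 7. Its day 14 libraries were all below those of day 7. The log2 fold change was -0.43 (SE 0.14, interval -0.73 to -0.12, adjusted p = 0.118). Against the summed T cell markers it was 1.52, beside a median of 1.90 for all genes tested. Both genes carry the same kind of codon and lay on opposite sides of 0.

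The other glutathione peroxidases were below the filter of 20 CPM. Gpx8, a peroxidase of the endoplasmic reticulum membrane, had 21.6, 17.1 and 16.8 RPKM on day 14 and 6.17, 6.76 and 1.81 RPKM on day 7, without overlap and with a log2 difference of 2.08. In a fit without the filter its adjusted p was 0.186, and without day 7 replicate 3 the difference was 1.37. Gpx3, the secreted enzyme of plasma, had 6, 30 and 44 reads (0.291, 1.32 and 1.82 RPKM) on day 14 and 0 reads in each day 7 library. Gpx2 and Gpx7 had reads in 1 day 14 library and in 0 day 7 libraries, and Gpx5 had 0 reads throughout.

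Among the peroxiredoxins, none of the 4 tested passed. Prdx1, a cytosolic enzyme that thioredoxin reduces, took the most reads of all 56 genes (15.6% to 18.5% of their reads on day 14 and 13.9% to 15.2% on day 7). It had 141, 170 and 135 RPKM on day 14 and 134, 136 and 128 RPKM on day 7, a log2 fold change of 0.17 (SE 0.22, interval -0.33 to 0.66, adjusted p = 0.728). Prdx6, which uses glutathione and also acts on phospholipids (chromosome 1, 161240112 to 161251219, minus strand), had 5.87, 5.62 and 6.16 RPKM on day 14 and 14.4, 14.1 and 11.2 RPKM on day 7. Every day 14 library lay below every day 7 library, with a log2 fold change of -0.99 (SE 0.33, interval -1.71 to -0.27, adjusted p = 0.126). Prdx6 was called lower by limma without weights (adjusted p = 0.0289) and by limma-voom (adjusted p = 0.00637). Its change was 0.75 against the summed T cell markers, beside a median of 1.90 for all genes tested.

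Prdx2, a cytosolic enzyme that thioredoxin reduces, had 10.9, 11.5 and 11.2 RPKM on day 14 and 11.4, 10.1 and 3.92 RPKM on day 7. Day 7 replicate 3 was far below the other 5 libraries, and the log2 fold change of 0.68 (SE 0.43, adjusted p = 0.419) was 0.05 against day 7 replicates 1 and 2. Exons of Rnaseh2a and Junb on the other strand overlap Prdx2, and whether the counting used strand is not given in the sources used here. Prdx5, which is found in mitochondria, peroxisomes and cytosol and overlaps Trmt112 on the other strand, had 31, 41.4 and 40.4 RPKM on day 14 and 38.4, 42.7 and 40 RPKM on day 7 (log2 fold change -0.11, SE 0.31, adjusted p = 0.887).

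Prdx4, the peroxiredoxin of the endoplasmic reticulum (chromosome X, 155323918 to 155340754, minus strand), was below the filter and showed the sharpest contrast in reads. It had 212, 51 and 156 reads (8.84, 1.93 and 5.56 RPKM) on day 14 and 0 reads in each of the 3 day 7 libraries. No fold is given against a group at 0, because how many molecules gave these reads is unknown. In the fit without a filter, which sets it against a group at 0, its adjusted p was 0.00435 by limma. There 5.12% of all genes were called higher and 1.08% lower. Prdx4 entered that fit through the day 14 libraries alone, as it did the fit with an RPKM of at least 1 in 2 samples. With 0 reads in every day 7 library, neither fit had a day 7 spread to measure for this gene, and neither call is used. Day 14 libraries had more reads and had a read in 18318 to 19053 genes, against 13133 to 13806 genes on day 7. The part of this gap in the result was not tested. Prdx3, the mitochondrial enzyme, had 9.15, 10.2 and 12.6 RPKM on day 14 and 5.94, 5.09 and 7.26 RPKM on day 7, and Srxn1, which repairs overoxidised peroxiredoxins, had 6.79, 8.64 and 7.72 RPKM on day 14 and 6.32, 6.24 and 5.11 RPKM on day 7. Both lay higher on day 14 without overlap, with adjusted p of 0.51 and 0.664 without a filter. They are below the filter and were picked out after their values were seen.

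**Figure D2:**
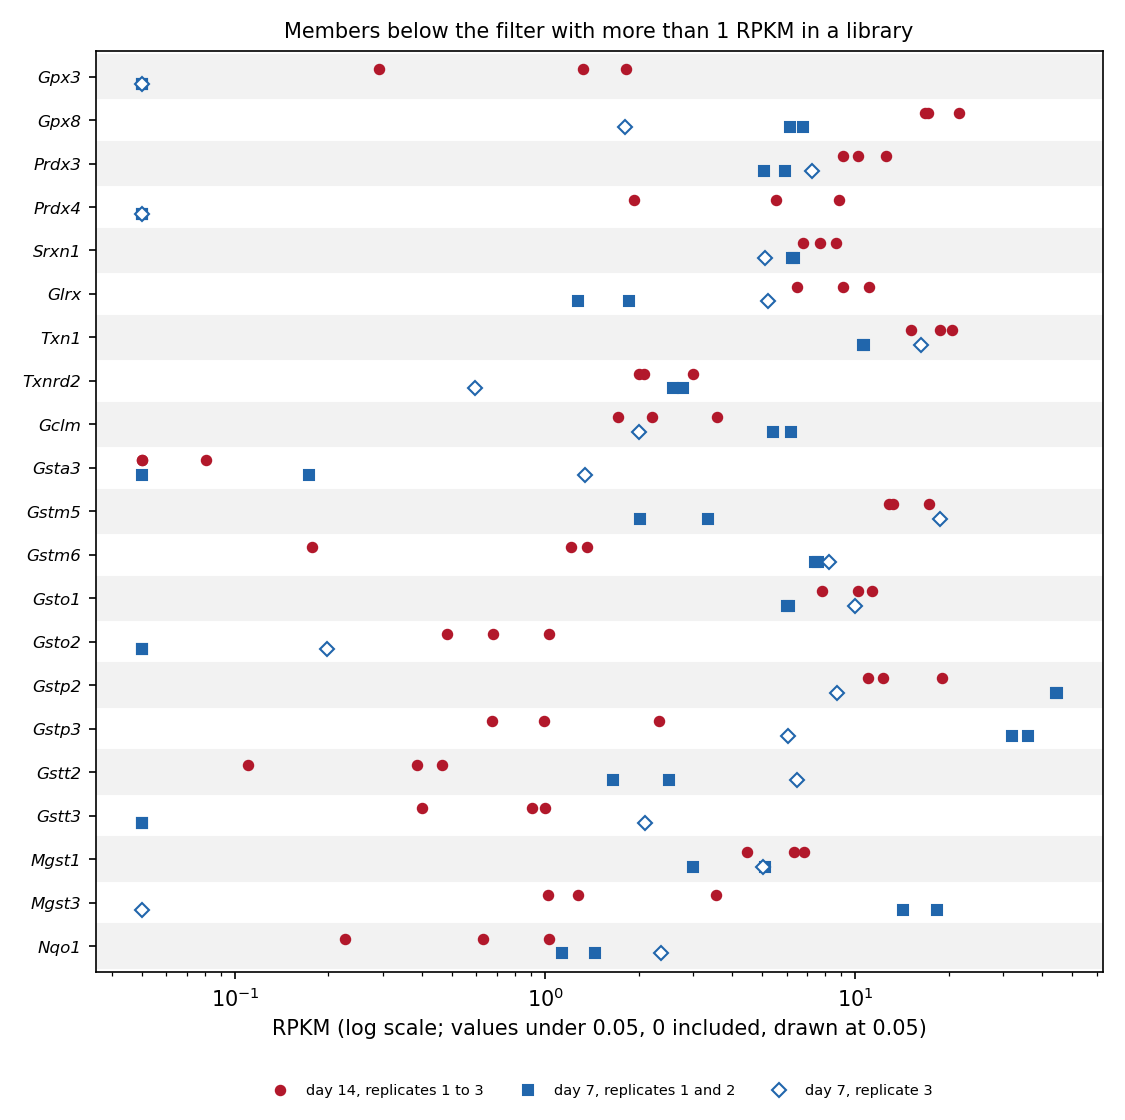
RPKM in each library of the genes below 20 CPM that exceeded 1 RPKM in at least 1 library, on a log scale with values under 0.05 drawn at 0.05; red circles are day 14 libraries, filled blue squares day 7 replicates 1 and 2, and open blue diamonds day 7 replicate 3. Prdx4 and Gpx3 have day 14 reads and 0 in all day 7 libraries, and Gstm6 (0.177 to 1.36 RPKM on day 14 and 7.44 to 8.25 RPKM on day 7) lies the other way.

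Thioredoxins and their reductases gave no call among 3 tested genes, and in all 3 the day 7 libraries lay on both sides of day 14. Txnrd1, the cytosolic reductase and the most abundant of the 3, had 60.7, 65.8 and 64.2 RPKM on day 14 and 90.1, 87.2 and 47.8 RPKM on day 7 (log2 fold change -0.04, SE 0.25, interval -0.58 to 0.50, adjusted p = 0.953). Txnrd3, a reductase with an added glutaredoxin domain, had 12.1, 11.9 and 13.2 RPKM on day 14 and 6.19, 5.75 and 19.9 RPKM on day 7 (log2 fold change 0.15, SE 0.41, adjusted p = 0.877). Txn2, the mitochondrial thioredoxin, had 11.1, 9.69 and 9.07 RPKM on day 14 and 6.98, 7.35 and 18.4 RPKM on day 7 (log2 fold change -0.21, SE 0.40, adjusted p = 0.827). Day 7 replicate 3 was high in Txnrd3 and Txn2 and low in Txnrd1. Below the filter, Txn1, the cytosolic thioredoxin, had 20.5, 18.8 and 15.1 RPKM on day 14 and 10.7, 10.6 and 16.3 RPKM on day 7. Glrx, the cytosolic glutaredoxin (chromosome 13, 75839868 to 75850151, plus strand), had 11.1, 9.12 and 6.48 RPKM on day 14 and 1.87, 1.28 and 5.24 RPKM on day 7, higher on day 14 without overlap (log2 difference 1.28, adjusted p = 0.505 without a filter). The difference was 1.92 without day 7 replicate 3 and 0.64 against replicate 3 alone. Txnrd2, the mitochondrial reductase, stayed between 0.592 and 3 RPKM in all libraries.

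Genes that make and recycle glutathione gave no call among 3 tested, and their values turned on day 7 replicate 3. Gclc, the catalytic subunit of the rate-limiting enzyme of glutathione synthesis, had 7.18, 4.82 and 5.6 RPKM on day 14 and 14.9, 13.9 and 2.77 RPKM on day 7. Gss, which adds the glycine in the last step, had 2.7, 3.26 and 3.44 RPKM on day 14 and 8.99, 9.58 and 2.18 RPKM on day 7. In both, day 7 replicates 1 and 2 were above all day 14 libraries and replicate 3 was below them. The log2 fold changes were -0.16 for Gclc (SE 0.57, adjusted p = 0.91) and -0.47 for Gss (SE 0.52, adjusted p = 0.665). Against day 7 replicates 1 and 2 they were -1.18 and -1.32, and against replicate 3 they were 0.85 and 0.38. Gsr, which reduces oxidised glutathione with NADPH, had 11.7, 11.3 and 11.9 RPKM on day 14 and 11.8, 11.5 and 3.12 RPKM on day 7. Its log2 fold change of 0.80 (SE 0.47, adjusted p = 0.379) was -0.01 against day 7 replicates 1 and 2. Gclm, the modifier subunit, was below the filter with 1.72, 3.59 and 2.21 RPKM on day 14 and 6.22, 5.41 and 2 RPKM on day 7. Gss overlaps Acss2 and other models on the other strand, and Gclm overlaps Gm6061 on its own strand.

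**Figure D3:**
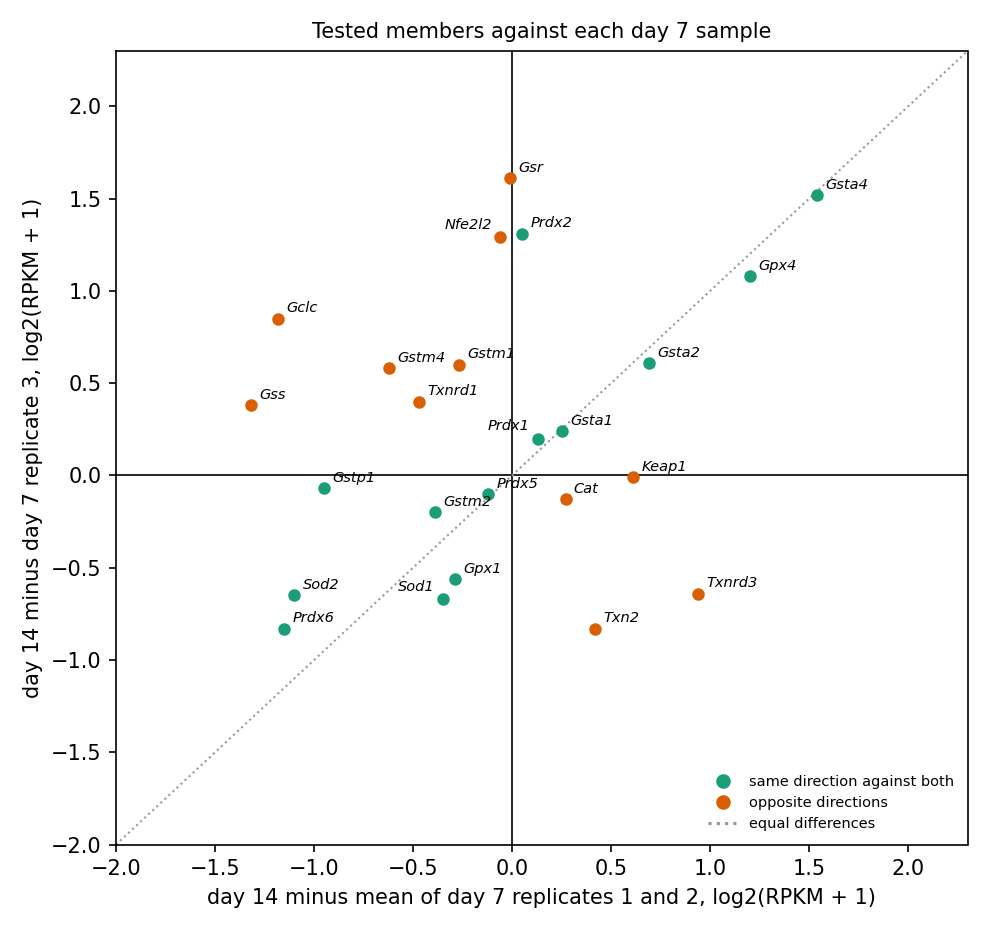
Differences in mean log2(RPKM + 1) of the 24 tested genes, day 14 minus the mean of day 7 replicates 1 and 2 on the x axis and day 14 minus day 7 replicate 3 on the y axis; the dotted line marks equal differences. In 13 genes both differences have 1 sign (green) and in 11 they have opposite signs (orange), with Gsta4 at 1.54 and 1.52 and Gclc at -1.18 and 0.85. The same count over all genes tested was not made.

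Across all 24 tested genes, 11 changed sign between the day 7 samples: Cat, Gclc, Gsr, Gss, Gstm1, Gstm4, Keap1, Nfe2l2, Txn2, Txnrd1 and Txnrd3. Among the 11, Gsr (-0.01) and Nfe2l2 (-0.06) were near 0 against replicates 1 and 2, and Keap1 (-0.01) against replicate 3. The other 13 had 1 sign, 6 higher and 7 lower on day 14. The share of all genes tested that changed sign was not counted, so the 11 are not read as a trait of these genes. The median distance of day 7 replicate 3 from replicates 1 and 2 was 0.54 on the log2 scale over the 24 genes and 0.48 over all genes tested, and it was over 1 in 8 of the 24 and in 1374 of the 6691. Day 14 libraries spread over a median range of 0.19 in these genes and 0.22 over all genes tested. Without day 7 replicate 3, 26 of the 56 genes reached 20 CPM, and 6 of these were called higher and 12 lower (Gclm among them), with 36.5% and 21.5% of all genes called. That fit takes the spread of the remaining day 7 sample from day 14. Gclm and Gss, both called lower there, reached 20 CPM through day 7, as their day 14 means were below it. Txnrd3, called higher there, reached it through day 14, as day 7 replicates 1 and 2 were below it. The calls of Gclm, Gss and Txnrd3 therefore support nothing about the 56 genes. Gss also reached the filter of the main test through day 7, and it was not called there.

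Cytosolic glutathione S-transferases held the gene that rose. Gsta4, the alpha class enzyme with high activity toward 4-hydroxynonenal, an aldehyde of lipid peroxidation (chromosome 9, 78182774 to 78209349, plus strand), had 59.4, 56 and 47.6 RPKM on day 14 and 17.6, 18.3 and 18.2 RPKM on day 7. All day 14 libraries were above all day 7 libraries, and day 7 replicate 3 was 0.01 from the mean of replicates 1 and 2 on the log2 scale. Its log2 fold change was 1.53 (SE 0.36, interval 0.73 to 2.33, 2.89-fold), with a limma adjusted p of 0.0368. The call ended without the filter (adjusted p = 0.0701), with an RPKM of at least 1 in 2 samples (0.0602), with median-of-ratios scaling (log2 fold change 1.39, adjusted p = 0.0582) and without day 14 replicate 2 (1.51, adjusted p = 0.0744).

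Gsta1, an alpha class enzyme, had the highest level per length of the transferases, with 372, 347 and 372 RPKM on day 14 and 312, 300 and 308 RPKM on day 7 (log2 fold change 0.24, SE 0.13, interval -0.03 to 0.52, adjusted p = 0.318). Gsta2 had 92.2, 88.1 and 105 RPKM on day 14 and 60.9, 55.8 and 62 RPKM on day 7 (log2 fold change 0.65, SE 0.24, interval 0.12 to 1.18, adjusted p = 0.171). In both genes the day 14 libraries lay above the day 7 libraries. The alpha class genes lie close together on chromosome 9, apart from Gsta3 on chromosome 1. The start of their coding sequences is a stretch where Gsta1 and Gsta2 are alike and Gsta4 differs. The first 60 coding bases from GENCODE M21 (GRCm38) follow, with capitals where Gsta4 differs from Gsta1.
Gsta1: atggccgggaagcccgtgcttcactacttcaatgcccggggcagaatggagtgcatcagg
Gsta2: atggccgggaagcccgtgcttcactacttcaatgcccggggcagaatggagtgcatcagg
Gsta4: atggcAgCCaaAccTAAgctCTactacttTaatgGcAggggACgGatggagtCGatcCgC
Gsta1 and Gsta2 are the same over this stretch and Gsta4 differs at 19 of 60 bases. Of all 150-base windows, the read length, 14.3% of Gsta1 and 14.4% of Gsta2 occur unchanged in the other, so their levels are uncertain by reads that fit both. Gsta4 shared no such window with any of the other 55 genes.

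Mu class genes gave no call among 3 tested. Gstm1 had 63.1, 68.8 and 66.9 RPKM on day 14 and 77.2, 82.8 and 43.4 RPKM on day 7 (log2 fold change 0.17, SE 0.25, adjusted p = 0.763). Gstm4 had 14.3, 11.4 and 17.3 RPKM on day 14 and 21.6, 23 and 9.16 RPKM on day 7 (log2 fold change -0.02, SE 0.47, adjusted p = 0.983). In both, day 7 replicate 3 was the lowest library and the other day 7 libraries the highest. Gstm2 had 44.8, 40.4 and 39.3 RPKM on day 14 and 51.3, 58.2 and 47.8 RPKM on day 7, lower on day 14 without overlap (log2 fold change -0.30, SE 0.23, adjusted p = 0.506). Gstm6 (chromosome 3, 107938847 to 107943749, minus strand) was below the filter, with 0.177, 1.36 and 1.21 RPKM on day 14 and 7.44, 7.56 and 8.25 RPKM on day 7. That is 4, 34 and 32 reads on day 14 and 118, 140 and 107 reads on day 7, and the days did not overlap. It was called lower with an RPKM of at least 1 in 2 samples (log2 fold change -2.28, adjusted p = 0.047), where 7.41% of all genes were called higher and 2.10% lower, and missed the threshold without a filter (adjusted p = 0.0602). Gstm5 had 17.3, 12.8 and 13.2 RPKM on day 14 and 3.34, 2.02 and 18.7 RPKM on day 7, where replicate 3 alone was high.

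Pi class genes lay lower on day 14 where they did not overlap. Gstp1, the pi class enzyme of many tissues (chromosome 19, 4035407 to 4037921, minus strand), had 110, 110 and 109 RPKM on day 14 and 209, 218 and 115 RPKM on day 7. Its day 14 libraries were all below those of day 7, with replicate 3 of day 7 nearest (log2 fold change -0.51, SE 0.21, interval -0.96 to -0.06, adjusted p = 0.202). The difference was -0.95 against day 7 replicates 1 and 2 and -0.07 against replicate 3. Gstp2, its neighbour, had 11, 19 and 12.3 RPKM on day 14 and 44.3, 44.6 and 8.76 RPKM on day 7. Coding sequences of Gstp1 and Gstp2 are 98.1% alike (12 of 630 bases differ), and 41.8% of the 150-base windows of Gstp1 and 43.4% of those of Gstp2 occur unchanged in the other, so the division of reads between them is uncertain. Gstp3, 71.7% alike to Gstp1, had 0.991, 0.674 and 2.33 RPKM on day 14 and 31.9, 36 and 6.05 RPKM on day 7, lower on day 14 without overlap (log2 difference -2.82, adjusted p = 0.0635 without a filter). The difference was -3.97 without day 7 replicate 3 and -1.66 against replicate 3 alone. Hepatocyte markers, also lower on day 14, were 133 RPKM in day 7 replicate 3 and 189 and 182 RPKM in replicates 1 and 2, and their part in the values of Gstp3 was not tested.

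Of the theta and omega class genes none passed the filter. Gstt2 had 0.385, 0.465 and 0.11 RPKM on day 14 and 1.65, 2.51 and 6.49 RPKM on day 7, lower on day 14 without overlap (log2 difference -1.87, adjusted p = 0.137 without a filter, and -1.23 without day 7 replicate 3). Gsto1 had 10.2, 11.3 and 7.82 RPKM on day 14 and 6.12, 6 and 9.97 RPKM on day 7, and the days overlapped. Membrane-bound transferases were low: Mgst1, which also reduces lipid peroxides, had 6.81, 6.33 and 4.48 RPKM on day 14 and 5.11, 2.99 and 5.03 RPKM on day 7. Mgst3, picked out after its values were seen, had 16, 14 and 52 reads on day 14 and 124, 188 and 0 reads on day 7, so that day 7 held both the highest libraries and a library at 0. Of the 32 genes below the filter, 8 lay above and 4 below on day 14 without overlap, beside 20% and 3.79% of all 20063 genes below it. Another count over the 32 gave 8 with reads on day 14 only and 2 on day 7 only, beside 33.8% and 3.2% of all genes below the filter, and 15 averaged under 1 RPKM.

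**Figure D4:**
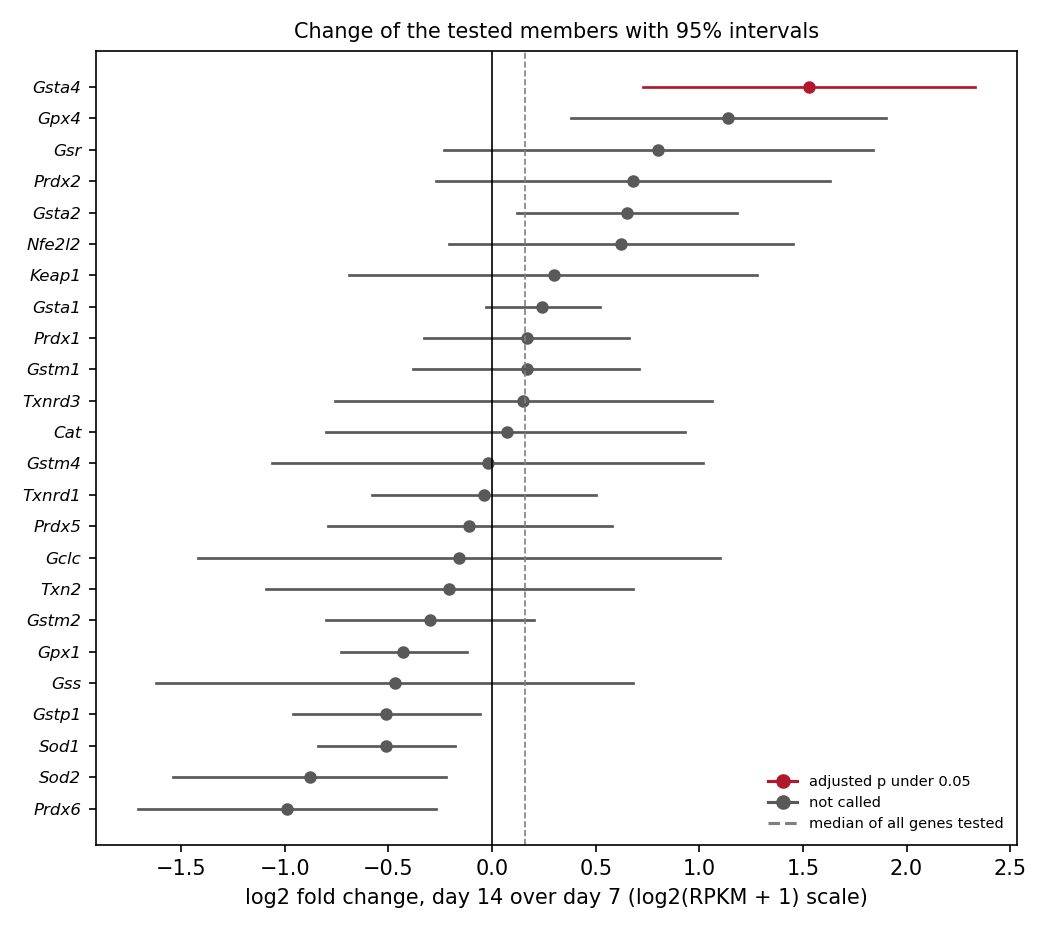
Log2 fold change, day 14 over day 7, of the 24 tested genes on the log2(RPKM + 1) scale with 95% intervals from limma; the solid line is 0 and the dashed line the median of all genes tested, 0.16. Gsta4 (1.53) is the gene called at an adjusted p under 0.05, drawn in red, and the other genes run from Gpx4 at 1.14 to Prdx6 at -0.99.

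The regulators showed no call. Nfe2l2, which encodes NRF2, had 22.9, 22.2 and 21.6 RPKM on day 14 and 21.8, 24.6 and 8.48 RPKM on day 7. The day 14 values overlapped those of day 7 replicates 1 and 2, and the log2 fold change of 0.62 (SE 0.38, interval -0.21 to 1.45, adjusted p = 0.401) was -0.06 without day 7 replicate 3. Keap1, the adaptor that sends NRF2 to degradation and overlaps Gm16754 on the other strand, had 6.4, 7.85 and 7.2 RPKM on day 14 and 5.29, 3.39 and 7.19 RPKM on day 7 (log2 fold change 0.30, SE 0.45, adjusted p = 0.763). Nqo1, a quinone reductase widely used as an NRF2 target, was below the filter with 0.226, 1.03 and 0.629 RPKM on day 14 and 1.13, 1.45 and 2.37 RPKM on day 7, lower on day 14 without overlap. Its adjusted p was 0.629 without a filter, and it was picked out after its values were seen.

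NRF2 binds the antioxidant response element, searched here as TGACNNNGC on both strands in RefSeq promoters of GRCm38.p6, from 250 bases before to 50 after each start. Among the 48 genes with a promoter there, a match was found in 10 (20.8%), against 14% of the 27025 genes there. Those 10 were Gclm, Gsta3, Gstm5, Gstm7, Mgst1, Nfe2l2, Prdx1, Sod1, Srxn1 and Txnrd1. The AP-1 motif TGANTCA was in 7 of the 48 (14.6%), against 8.97% of all genes. The stretches around the match are given for the 3 tested genes of highest mean read number among them, on the strand of the gene, with the match in capitals, which reads on the opposite strand in all 3.
Prdx1: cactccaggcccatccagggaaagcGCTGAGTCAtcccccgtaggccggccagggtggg
Txnrd1: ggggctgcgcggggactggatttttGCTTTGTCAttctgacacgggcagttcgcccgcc
Sod1: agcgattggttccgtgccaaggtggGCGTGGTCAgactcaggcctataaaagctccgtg
They lie at chr4:116685441-116685499, chr10:82859089-82859147 and chr16:90220681-90220739 on the plus strand, and the match starts at -133, -92 and -56 bases from the RefSeq start. The match in Prdx1 overlaps an AP-1 motif. A match describes the letters and is not evidence of binding.

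Related genes of the same pathways were taken from fixed lists, chosen with earlier results of these data known. Of the NRF2 partners, regulators and other targets, 14 of 24 were tested, 3 rose on day 14 (Hmox1, Bach1 and Fth1) and 0 fell, with a median log2 fold change of 0.39 beside 0.16 for all genes tested, of which 1.66% were called higher and 3.14% lower. Hmox1, the heme oxygenase that NRF2 induces and BACH1 represses, had 134, 121 and 122 RPKM on day 14 and 40.1, 42.8 and 42.6 RPKM on day 7. The days were far apart beside the spread within each, with a log2 fold change of 1.56 (SE 0.23, interval 1.06 to 2.06, 2.95-fold, limma adjusted p = 0.00261). It kept its call in every alternative tried. Bach1, the repressor that competes with NRF2, had 7.32, 4.66 and 7.5 RPKM on day 14 and 0.65, 0.695 and 0.198 RPKM on day 7 (log2 fold change 2.38, adjusted p = 0.0128). Its mean of 25.2 CPM reached the filter through day 14 alone, so the call supports nothing about the list, and without day 14 replicate 3 it was below the filter. Its call ended with a pseudocount of 0.1 (3.75, adjusted p = 0.359), by limma-voom (3.67, adjusted p = 0.115), without a filter (adjusted p = 0.151) and with an RPKM of at least 1 in 2 samples (adjusted p = 0.067). Fth1, the ferritin heavy chain, had 954, 920 and 929 RPKM on day 14 and 616, 603 and 750 RPKM on day 7 (log2 fold change 0.47, adjusted p = 0.039), and its call ended without a filter (adjusted p = 0.0681), with median-of-ratios scaling (0.32, adjusted p = 0.155) and without day 14 replicate 1, 2 or 3 (adjusted p = 0.0822, 0.0642 and 0.0525). Macrophage and melanocyte markers were also higher on day 14, and their part in these rises was not tested.

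In the NADPH oxidase list, whose enzymes make superoxide, 7 of 11 measured genes were tested, 0 rose and 1 fell, beside the 1.66% and 3.14% of all genes tested. Rac2, the small GTPase of the oxidase in blood cells, had 6.05, 6.74 and 4.72 RPKM on day 14 and 33.8, 34.6 and 19.4 RPKM on day 7 (log2 fold change -1.98, SE 0.36, limma adjusted p = 0.00978). Its mean of 43.2 CPM reached the filter through day 7, as its day 14 mean was below 20 CPM. The call therefore supports nothing about the list. Rac2 is also expressed in T cells. Its change was -0.18 against the summed T cell markers (limma adjusted p = 0.617), beside a median of 1.90 for all genes tested. The part of T cells in the change of Rac2 was not tested. Cybb, the catalytic subunit of phagocytes, had 26.9, 30.9 and 30 RPKM on day 14 and 13.9, 14.2 and 17.4 RPKM on day 7, above without overlap (log2 fold change 0.86, adjusted p = 0.176). No gene was called among 5 tested of 17 measured in glutathione turnover and cystine supply, 14 of 29 other glutathione and thioredoxin-fold genes, 11 of 14 of NADPH supply and 11 of 18 of selenoprotein synthesis and other selenoproteins, with medians of 0.33, 0.03, 0.11 and 0.04. Txnip, the inhibitor of thioredoxin, had 18.9, 16.6 and 16 RPKM on day 14 and 26.4, 26.3 and 50.2 RPKM on day 7 (log2 fold change -1.05, adjusted p = 0.0673). The days of Txnip did not overlap, and its change was -0.60 without day 7 replicate 3 and -1.50 against replicate 3 alone. It was called lower by limma-voom (adjusted p = 0.03, 10.8% of all genes lower). Median-of-ratios scaling also called it lower by limma (adjusted p = 0.0344, 4.23% of all genes lower). G6pdx, the first enzyme of the pentose phosphate pathway, had 17.4, 17.8 and 19.1 RPKM on day 14 and 19.8, 17 and 29.8 RPKM on day 7 (log2 fold change -0.36, adjusted p = 0.56). Slc7a11, the cystine carrier, was below the filter with 0.984, 1.03 and 0.825 RPKM on day 14 and 0, 0 and 0.947 RPKM on day 7.

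Set against the summed T cell markers, 12 of the 24 tested genes turned sign. Scaled to the summed RPKM of the 12 T cell markers, all 24 tested genes were called higher on day 14, with a median log2 fold change of 1.89 beside 1.90 for all 6691 genes, of which 95.2% were called higher and 0.239% lower. Prdx6 (0.75), Sod2 (0.96) and Gss (1.02) were the lowest of the 24 on that scale and Gsta4 (3.39) and Gpx4 (3.01) the highest. With median-of-ratios scaling the median of all genes was 0.02 in place of 0.16, Gpx1 and Sod1 were called lower and 0 genes of the 56 higher, with 0.927% of all genes called higher and 4.23% lower.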

How the data were processed

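Per the labels, poly-A RNA of cells selected with CD8a beads was made into stranded libraries with molecular identifiers and read as pairs. The submitters' processing notes name Trimmomatic 0.36, featureCounts and Subread 1.5.1 with the genome GRCm38. No aligner is named there, and how the identifiers and the strand were used is likewise not given in the sources used here. The deposited RPKM, made by the authors per gene and library, are relative to gene length and to all reads in genes. RPKM times length gave whole reads within a tolerance of 0.001. Low read numbers were mostly even (80.7% to 92.5% of genes with 2 to 20 reads), so both mates of a pair were mostly counted.

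Members and gene lists were chosen with earlier results of these data known. limma 3.58.1 in R 4.3.3 was fitted to log2(RPKM + 1) of the 6691 genes whose mean over 5 samples reached 20 CPM, with day 7 replicates 1 and 2 averaged. Fold changes on this scale understate changes of low genes. Precision weights per day came from a loess trend of log variance (span 0.3, floor 0.005, corrected for the bias of the log), followed by moderated tests with a trend and Benjamini-Hochberg adjustment over all tested genes, called under 0.05. The script was tested on simulated data. The correction of the weights and 2 other weightings were chosen after the data were seen. Named genes are all members with at least 20 CPM, the 5 highest below it, members below it with a log2 difference past 1 and no overlap, up to 4 called genes per list and 6 listed in advance. Any other member named was picked after its values were seen. The sums of 1 marker list are not reported here. Summary values of markers, reads and sequences were computed with Python 3.11.15, numpy 2.4.6 and pandas 2.3.3.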

Additional observations from a re-analysis of the deposited data

How the results depend on the processing

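Of the log2 fold changes of the 24 tested members under all alternatives, 330 kept their direction and side of the threshold. Another 29 turned sign and were not split by the threshold, which some of them passed. Of those that kept their sign, 67 passed the threshold only in the alternative and 4 lost it, fits with 1 day 7 sample included. Members called higher numbered 1 in the main test, where 1.66% of all genes tested were called higher. They numbered 3 without weights (8.98% of all genes), 0 with median-of-ratios scaling (0.927%), 24 with T cell scaling (95.2%) and 3 by limma-voom (21.7%). There were 2 with weights lacking the bias correction (316 of 6691 genes) and 4 with 6 libraries counted singly (1107 of 6680). Leaving out a day 14 library, or day 7 replicate 1 or 2, gave 0 to 2 (69 to 119 of 6666 to 6706 genes). Calls of fits that left 1 day 7 sample are not counted. Members called lower numbered 0 in the main test (3.14% of all genes tested), 1 with the RPKM filter (2.10%) and 3 without weights (6.13%). They numbered 2 with median-of-ratios scaling (4.23%) and 4 by voom (10.8%). There were 3 without the bias correction (342 of 6691 genes) and 5 singly (753 of 6680). Leaving out a day 14 library, or day 7 replicate 1 or 2, gave 0 (199 to 212 of 6666 to 6706 genes). The cause was not tested.

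No pairing by replicate number was seen in deviations from the day means (correlations of same-numbered libraries -0.0145, -0.0148 and -0.0341). No library correlated best with its own number. With 3 libraries per day, and day 7 replicates 1 and 2 nearly alike, this check cannot exclude pairing. A replicate block with 6 libraries counted singly called 3 members higher and 2 lower, and 1170 of 6680 genes in all (627 higher and 543 lower). It called 7 listed genes higher and 5 lower, and gave 0.00 for Txn2.

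Of all genes, 321 were called (111 higher and 210 lower). There were 1410 without a filter (1164 and 246), 1294 with the RPKM filter (1008 and 286), 1011 without weights (601 and 410), 658 without the bias correction (316 and 342), 1860 singly (1107 and 753), 6383 with T cell scaling (6367 and 16), 2177 by voom (1455 and 722), 3549 with day 7 replicate 3 alone (2204 and 1345), 345 with median-of-ratios scaling (62 and 283) and 274 to 3901 when 1 library was left out, the highest without day 7 replicate 3 (2456 and 1445). Listed genes called higher, 3 in the main test, were 6 with the RPKM filter, 5 without weights, 5 without the bias correction, 9 singly, 59 with T cell scaling, 9 by voom, 17 with day 7 replicate 3 alone and 1 to 27 when 1 library was left out. Those called lower, 1 in the main test, were 3, 3 and 7 without weights, without the bias correction and singly, 2 with median-of-ratios scaling, 0 with T cell scaling, 8 by voom, 12 with day 7 replicate 3 alone and 1 to 14 when 1 library was left out.

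Signs turned as follows. With T cell scaling log2 fold changes were 1.45 for Gclc, 1.52 for Gpx1, 1.02 for Gss, 1.61 for Gstm2, 1.78 for Gstm4, 1.43 for Gstp1, 1.79 for Prdx5, 0.75 for Prdx6, 1.44 for Sod1, 0.96 for Sod2, 1.54 for Txn2, 1.89 for Txnrd1, 1.49 for G6pdx and 0.83 for Txnip. With day 7 replicate 3 alone, Gclc and Gss fell below the filter, and their log2 differences of 0.85 and 0.38 had turned sign. Log2 fold changes in that fit were -0.13 for Cat, 0.58 for Gstm4, -0.01 for Keap1, 0.40 for Txnrd1 and -0.64 for Txnrd3. For genes below the main filter they were -0.36 for Gstm5, -0.04 for Gsto1 and 0.59 for Gstp2. When 1 library was left out they ran from -0.01 to 0.82 for Gsr, -0.27 to 0.20 for Gstm1, -0.06 to 0.66 for Nfe2l2 and -0.28 to 0.42 for Txn2, with the turned sign without day 7 replicate 3. They ran from -0.06 to 0.27 for Cat and -0.62 to 0.12 for Gstm4, turned without day 14 replicate 2, and from -0.18 to 0.02 for Prdx5, turned without day 14 replicate 1. Cat was -0.07 with median-of-ratios scaling, Gstm1 -0.01 by voom, and Txn2 0.10 by voom and 0.00 singly. Where 1 day 7 sample was left, its spread was taken from day 14. Depth limits the 32 members below 20 CPM most, and intervals cover only the spread between these libraries.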
